A study of Mus musculus with 11 samples.

Results

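The miR-106b~25 cluster is a group of microRNAs (miRNAs) processed from 3 hairpins of 1 transcript, carried by the gene Mcm7, which encodes a subunit of the replicative helicase. Its members were taken by name as the major arm of each hairpin: mmu-miR-106b-5p, mmu-miR-93-5p and mmu-miR-25-3p (mmu, for mouse, is left out below), 3 of the 1247 miRNAs on the array. The rule goes by name and takes no measured value, though it was set with earlier results of these data known. The question was how the members moved between stages of injury in heart macrophages, and whether they moved together, as read from the ratio of a pair of them on the same array.

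A miRNA is a short RNA that guides Argonaute proteins to messenger RNAs, mostly through its seed, bases 2 to 8 from the 5′ end. Clustered miRNAs are cut from 1 primary transcript by Drosha and then from separate hairpins by Dicer, after which each product is loaded and degraded on its own. The miR-106b~25 cluster is a paralogue of the miR-17 cluster of the host gene Mir17hg. Its members are known for restraining the cell cycle inhibitor Cdkn1a and the pro-apoptotic factor Bcl2l11, and Mcm7 itself is a gene of proliferating cells.

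The RNA came from GFP-positive cells sorted from hearts of Cx3cr1GFP/+ mice aged 2 to 3 months, in which GFP replaces 1 copy of the fractalkine receptor gene, so that every group carried the same knock-in allele. Injury was a freezing lesion (cryoinjury), used as a model of myocardial infarction. Macrophages of the Ly6clow/CX3CR1high profile were taken from unoperated hearts (day 0, 2 arrays) and at day 7 and day 30 after injury (3 arrays each). Macrophages of the Ly6chigh/CX3CR1low profile came only from day 3 (3 arrays). In comparisons with day 3, stage and population therefore cannot be told apart. Replicates are independent biological ones according to the labels. The labels do not say how many hearts went into each, and the uninjured mice had no sham operation.

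The members are shown first because their seeds place them in a pair and a single. The sequences are from RefSeq (GRCm38.p6), and the capitals mark the seed.
miR-106b-5p: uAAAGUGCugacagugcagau
miR-93-5p: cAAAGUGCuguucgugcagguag
miR-25-3p: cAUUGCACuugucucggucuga
miR-106b-5p and miR-93-5p share the seed AAAGUGC, and 16 of their bases are the same when the sequences are laid side by side from the 5′ end. miR-25-3p has the seed AUUGCAC and shares only 5 positions with miR-106b-5p.

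The hairpins lie on chromosome 5, on the minus strand, within the 7529 bases of Mcm7 (chr5:138164583-138172111, same strand). Together they span 498 bases (chr5:138165321-138165818), with 126 bases between the miR-106b and miR-93 hairpins and 118 bases between the miR-93 and miR-25 hairpins. The table used for positions holds no exons, so the placement in an intron is background knowledge. The hairpins are shown in the order of transcription to make clear which arm is the member, given in capitals.
Mir106b: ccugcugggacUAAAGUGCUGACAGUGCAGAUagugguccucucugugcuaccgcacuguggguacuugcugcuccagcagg
Mir93: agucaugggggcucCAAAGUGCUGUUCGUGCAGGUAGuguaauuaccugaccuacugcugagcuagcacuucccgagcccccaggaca
Mir25: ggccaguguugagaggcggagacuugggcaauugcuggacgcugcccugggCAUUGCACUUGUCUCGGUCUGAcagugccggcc
The miR-106b and miR-93 members come from the 5′ arm and the miR-25 member from the 3′ arm.

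Near copies elsewhere in the genome matter for reading an array. The miRNAs with a member's seed that gave signal on at least 6 of 11 arrays are these.
miR-17-5p: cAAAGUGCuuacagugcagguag
miR-20a-5p: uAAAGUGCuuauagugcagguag
miR-20b-5p: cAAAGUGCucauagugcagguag
miR-92a-3p: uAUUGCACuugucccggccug
Compared position by position, miR-106b-5p shares 18 bases with miR-17-5p, 18 with miR-20a-5p and 17 with miR-20b-5p. miR-93-5p shares 20 with miR-20b-5p, and miR-25-3p shares 18 with miR-92a-3p. How far a probe also binds such a relative was not tested.

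Every value rests on arrays that differed in brightness. Over the 126 miRNAs that every array detected, the 75th percentile ran from 55.7 to 163 scanner units for day 0, from 805 to 1607 for day 3, from 114 to 323 for day 7 and from 1453 to 2304 for day 30. Each signal was therefore divided by this percentile and given as log2. The arrays of day 30 replicates 2 and 3 were closer to each other than scanner error alone would make them, so their mean counts as 1 sample and 10 samples remain. Of the macrophage and leukocyte markers, miR-223-3p, miR-142a-3p, miR-142a-5p and miR-146a-5p, 3 of 4 were detected on every day 0 and day 7 array and 4 of 4 on every day 3 and day 30 array. Of 6 cardiomyocyte markers, 2 were detected on every array of day 0, day 3 and day 7, and 3 on every day 30 array. Another 3 or 4 were detected on no array of a group, miR-208a-3p and miR-499-5p among them. The summed scaled signal of the 6, in log2, ran from -2.87 to -1.92 for day 0, from -5.33 to -4.50 for day 3, from -3.45 to -2.94 for day 7 and from -4.14 to -3.65 for day 30. The sums include undetected markers, whose background weighs more when divided by the small percentile of a dim array, as at day 0. The part of cardiomyocytes in the members' changes was not tested.

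All 3 members were higher in the Ly6chigh macrophages of day 3 than in the Ly6clow macrophages of the uninjured heart, and all 3 were lower again at day 7. In RNA pooled from many cells, fewer cells with a miRNA and less of it per cell cannot be told apart. At day 30 they parted. miR-106b-5p was 3.05 above day 0 and -0.10 from day 3 on the log2 scale. The former value rests on 2 day 0 arrays, 1 of which did not detect it, and was 4.18 or 1.93 with either left out. By contrast, miR-25-3p was 4.40-fold and miR-93-5p 3.64-fold below day 3.

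**Figure D1:**
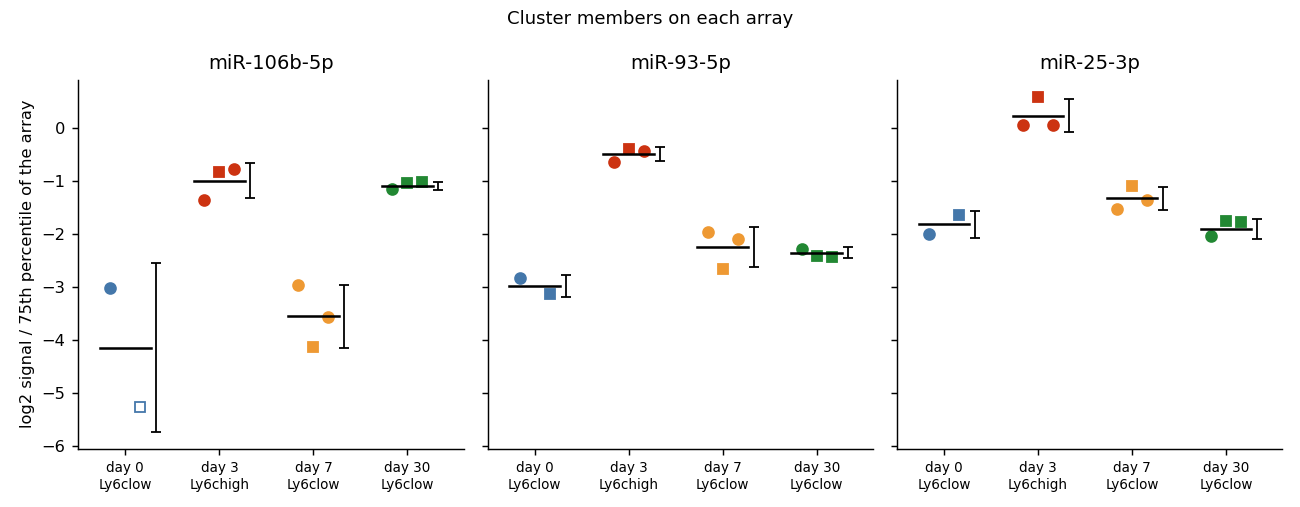
Log2 signal of each member divided by the 75th percentile of its array, by day and sorted population. Points are arrays (circles slide 1, squares slide 2, open where the member was not detected), lines are means over samples and bars are ± SD, with day 30 replicates 2 and 3 averaged. Day 3 is high in all 3 panels, and day 30 is as high as day 3 for miR-106b-5p alone.

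miR-106b-5p gave raw signals of 20.1 and 1.44 scanner units on the day 0 arrays, the second of which was not called detected. It gave 371, 450 and 931 at day 3, 41.1, 6.42 and 21.9 at day 7, and 1035, 702 and 858 at day 30. On the scaled log2 axis these were -3.02 and -5.28 at day 0, -1.37, -0.84 and -0.79 at day 3, -2.97, -4.15 and -3.57 at day 7, and -1.15, -1.05 and -1.03 at day 30. Day 3 and day 30 were both high and overlapped, and every one of their arrays lay above all arrays of day 0 and day 7. The group means were -1.0 ± 0.32 (SD, n = 3) at day 3, -1.10 ± 0.08 (n = 2) at day 30, -3.56 ± 0.59 (n = 3) at day 7 and -4.15 ± 1.59 (n = 2) at day 0. In this order, day 3 and day 30 did not differ beyond their spread, nor did day 7 and day 0.

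miR-93-5p was detected on all 11 arrays. Its raw signals were 22.9 and 6.34 at day 0, 615, 604 and 1180 at day 3, 82.6, 17.8 and 60.5 at day 7, and 471, 270 and 322 at day 30. The scaled log2 values were -2.84 and -3.14 at day 0, -0.65, -0.41 and -0.45 at day 3, -1.97, -2.68 and -2.10 at day 7, and -2.29, -2.43 and -2.44 at day 30. Day 3 stood alone above every other array, and day 30 lay within the range of day 7. The means were -0.50 ± 0.13 (SD, n = 3) at day 3, -2.25 ± 0.38 (n = 3) at day 7, -2.36 ± 0.10 (n = 2) at day 30 and -2.99 ± 0.21 (n = 2) at day 0. Only the step from day 3 down to day 7 passed the test among neighbours in this order.

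miR-25-3p was also detected on all 11 arrays. Its raw signals were 40.7 and 17.8 at day 0, 994, 1209 and 1658 at day 3, 111, 52.7 and 101 at day 7, and 559, 426 and 509 at day 30. The scaled log2 values were -2.00 and -1.64 at day 0, 0.05, 0.59 and 0.05 at day 3, -1.54, -1.11 and -1.36 at day 7, and -2.04, -1.77 and -1.78 at day 30. Day 3 again stood above every other array, and day 30 overlapped day 0. The means were 0.23 ± 0.31 (SD, n = 3) at day 3, -1.34 ± 0.22 (n = 3) at day 7, -1.82 ± 0.26 (n = 2) at day 0 and -1.91 ± 0.19 (n = 2) at day 30. Day 7, day 0 and day 30 were not told apart by the test.

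The groups were compared with limma, fitted on the 369 miRNAs detected on at least 2 arrays, with Benjamini-Hochberg adjustment over all of them and a threshold of 0.05. Across the 4 groups each member passed the F test, with limma adjusted p = 0.00113 for miR-106b-5p, 0.00109 for miR-93-5p and 0.00177 for miR-25-3p. So did 78.9% of all miRNAs tested, so that passing this test does not set the members apart.

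The first question was how Ly6chigh macrophages of day 3 compared with Ly6clow macrophages of the uninjured heart. miR-106b-5p rose by 3.15 on the log2 scale (SE 0.61, limma adjusted p = 0.00218), with 1 of the 2 day 0 arrays not detecting it. miR-93-5p rose by 2.48 (SE 0.41, limma adjusted p = 0.000987) and miR-25-3p by 2.05 (SE 0.41, limma adjusted p = 0.00273). No array of one group overlapped the other. With 2 or 3 arrays in a group such a gap is easily reached. How many of all tested miRNAs show it was not counted, here or in the comparisons below. In this comparison 55.3% of tested miRNAs were called, 39% lower and 16.3% higher, and all 3 members were among the latter.

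The scaling places these changes against a moving background. Among the 126 miRNAs that every array detected the median change was -0.77 from day 0 to day 3, and relative to it the members rose by 3.92, 3.25 and 2.82. With brightness as a covariate miR-106b-5p was 0.13 and miR-93-5p 1.49 above day 0, and neither passed (limma adjusted p = 0.961 and 0.122), while miR-25-3p kept its call at 3.07. The 2 groups did not overlap in brightness, so the covariate and the group can hardly be told apart. With day 0 replicate 1 left out miR-106b-5p rose by 4.28, and with replicate 2 left out by 2.02; both passed.

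The second question was how Ly6clow macrophages of day 7 compared with Ly6chigh macrophages of day 3. miR-106b-5p fell by 2.56 on the log2 scale (SE 0.54, limma adjusted p = 0.00393), miR-93-5p fell by 1.75 (SE 0.37, limma adjusted p = 0.00392) and miR-25-3p fell by 1.56 (SE 0.37, limma adjusted p = 0.00629). The groups did not overlap for any member, a gap that was not counted over all tested miRNAs. In all, 37.1% of tested miRNAs were called and 16% were called lower. The median of the miRNAs detected on all arrays rose by 0.63 between these groups, so that relative to it the changes were -3.20, -2.38 and -2.20. With brightness as a covariate the miR-25-3p call held at -2.25, whereas miR-106b-5p at -0.54 and miR-93-5p at -1.08 did not pass.

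Day 7 and day 0 were both Ly6clow and both dim. The members were 0.59, 0.74 and 0.49 higher at day 7 on the log2 scale, in the order miR-106b-5p, miR-93-5p and miR-25-3p, and none passed (limma adjusted p = 0.523, 0.22 and 0.422). Only 3.79% of tested miRNAs were called in this comparison. The 95% intervals ran from -0.73 to 1.90, from -0.15 to 1.62 and from -0.40 to 1.38, so a rise of more than 2-fold is not excluded for any of them. For miR-106b-5p the value rests on the day 0 arrays: without day 0 replicate 1 the difference was 1.71 and passed (limma adjusted p = 0.0195), and without replicate 2, where the miRNA was not detected, it was -0.54. For miR-25-3p the call depends on the scaling: it passed at 1.81 with the percentile taken over all miRNAs and at 0.91 with quantile normalization (limma adjusted p = 0.0442 and 0.0269). The median changes of the 126 miRNAs that every array detected were 1.11 and -0.077 in these settings.

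Day 30 against day 0 compared Ly6clow macrophages late after injury with those of the uninjured heart. miR-106b-5p was 3.05 higher on the log2 scale (SE 0.66, limma adjusted p = 0.00441), with no overlap between groups. miR-93-5p was 0.62 higher (95% interval -0.35 to 1.59, limma adjusted p = 0.247). miR-25-3p differed by -0.09 (95% interval -1.06 to 0.89, limma adjusted p = 0.875). In this comparison 56.4% of tested miRNAs were called, 47.4% lower and 8.94% higher.

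Against the median shift of -1.06 in this comparison, the differences were 4.12, 1.69 and 0.98, so that the sizes given depend on the scaling, and for miR-25-3p the sign too. Without scaling miR-93-5p was 4.95 and miR-25-3p 4.24 higher at day 30 and both passed, as they did at 3.57 and 2.86 with the percentile taken over all miRNAs. The median changes of the 126 miRNAs that every array detected were 3.265 and 1.88 in these settings. With brightness as a covariate miR-106b-5p turned to -0.69 (limma adjusted p = 0.718), with an SE of 1.13 against 0.66 before. Brightness did not overlap between these groups, so that covariate and the group can hardly be told apart. With day 0 replicate 1 left out it was 4.18 higher, and with replicate 2 left out 1.93; both passed.

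From day 3 to day 30 miR-106b-5p differed by -0.10 (95% interval -1.41 to 1.21, limma adjusted p = 0.93), an interval that allows more than 2-fold either way. miR-93-5p fell by 1.86 (SE 0.41, limma adjusted p = 0.00566) and miR-25-3p fell by 2.14 (SE 0.41, limma adjusted p = 0.00247), each with no overlap. Of all tested miRNAs 30.9% were called here and 21.1% were called lower. Relative to the median shift of -0.49, miR-106b-5p differed by 0.40, miR-93-5p by -1.37 and miR-25-3p by -1.64. Day 3 and day 30 were the bright groups, and with brightness as a covariate miR-93-5p at -2.10 and miR-25-3p at -1.89 kept their calls. Without scaling neither passed, at -1.03 and -1.30, and with the percentile taken over all miRNAs miR-93-5p did not pass at -1.46. Without day 30 replicate 1 the calls were lost at changes of -1.94 and -2.00 (limma adjusted p = 0.0694 and 0.0606), since 1 sample then stood for day 30 and was taken to vary like the other groups.

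From day 7 to day 30 miR-106b-5p rose by 2.47 (SE 0.61, limma adjusted p = 0.00521), while miR-93-5p at -0.12 and miR-25-3p at -0.57 did not pass (limma adjusted p = 0.834 and 0.268). Without scaling both were higher at day 30, by 3.06 and 2.60, and passed (limma adjusted p = 0.00653 and 0.00145). The median change of the 126 miRNAs that every array detected was then 2.61. With quantile normalization miR-25-3p passed in the other direction, at -0.69 (limma adjusted p = 0.0196). Here 47.7% of tested miRNAs were called and 13.6% were called higher. In the scaled values the median shift was -0.57. With brightness as a covariate miR-106b-5p was -0.28 (limma adjusted p = 0.846).

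**Figure D2:**
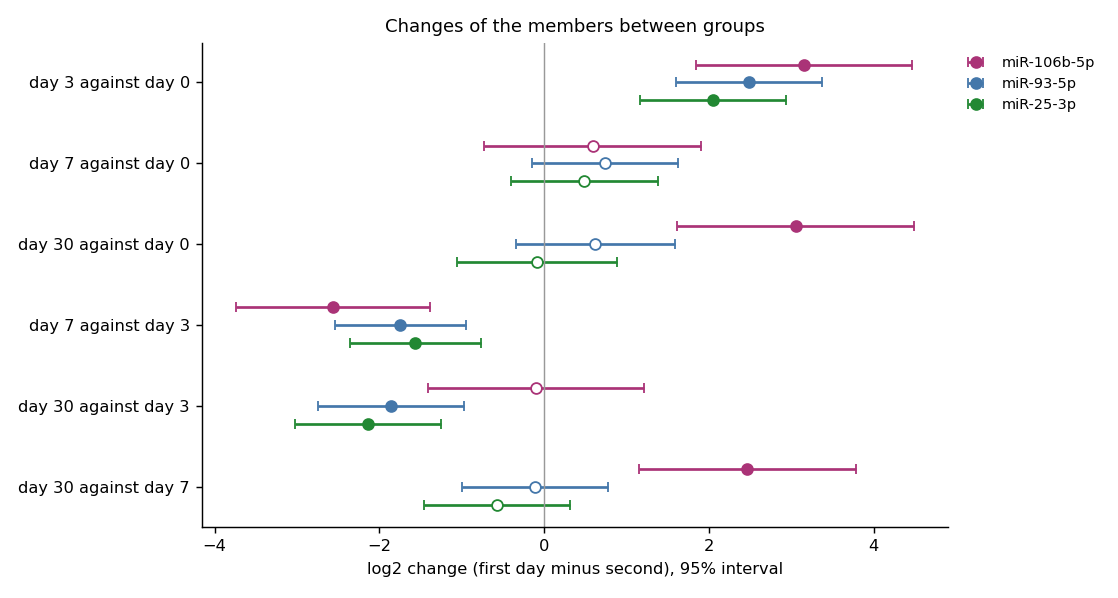
Log2 change of each member in the 6 comparisons of groups, first day minus second, with 95% intervals from limma. Filled points passed at an adjusted p under 0.05; the members lie together at day 3 against day 0 and day 7 against day 3, and miR-106b-5p lies to the right of both others in the 3 comparisons of day 30.

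Ratios between members on the same array do not depend on the scaling, since the divisor is common to both. A ratio's own level means little, because each probe has its own response, so only its movement between arrays is read. The log2 ratio of miR-106b-5p over miR-25-3p was -1.02 and -3.63 at day 0, -1.42, -1.42 and -0.83 at day 3, -1.43, -3.04 and -2.21 at day 7, and 0.89, 0.72 and 0.75 at day 30. All 3 day 30 arrays lay above the other 8, by at least the distance from -0.83 to 0.72. How often ratios of other miRNAs do so was not counted. The group means were -2.33 ± 1.85 (SD, n = 2), -1.23 ± 0.34 (n = 3), -2.23 ± 0.80 (n = 3) and 0.81 ± 0.11 (n = 2).

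The log2 ratio of miR-106b-5p over miR-93-5p, the pair with a common seed, was -0.19 and -2.14 at day 0, -0.73, -0.42 and -0.34 at day 3, -1.01, -1.47 and -1.47 at day 7, and 1.14, 1.38 and 1.41 at day 30. The day 30 arrays were again above the other 8. The group means were -1.16 ± 1.38 (SD, n = 2), -0.50 ± 0.20 (n = 3), -1.32 ± 0.27 (n = 3) and 1.27 ± 0.18 (n = 2).

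The log2 ratio of miR-93-5p over miR-25-3p, which differ in seed, moved less. It was -0.83 and -1.49 at day 0, -0.69, -1.0 and -0.49 at day 3, -0.42, -1.57 and -0.74 at day 7, and -0.25, -0.66 and -0.66 at day 30. All groups overlapped with at least one other, and the means were -1.16 ± 0.47 (SD, n = 2), -0.73 ± 0.26 (n = 3), -0.91 ± 0.59 (n = 3) and -0.45 ± 0.29 (n = 2).

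**Figure D3:**
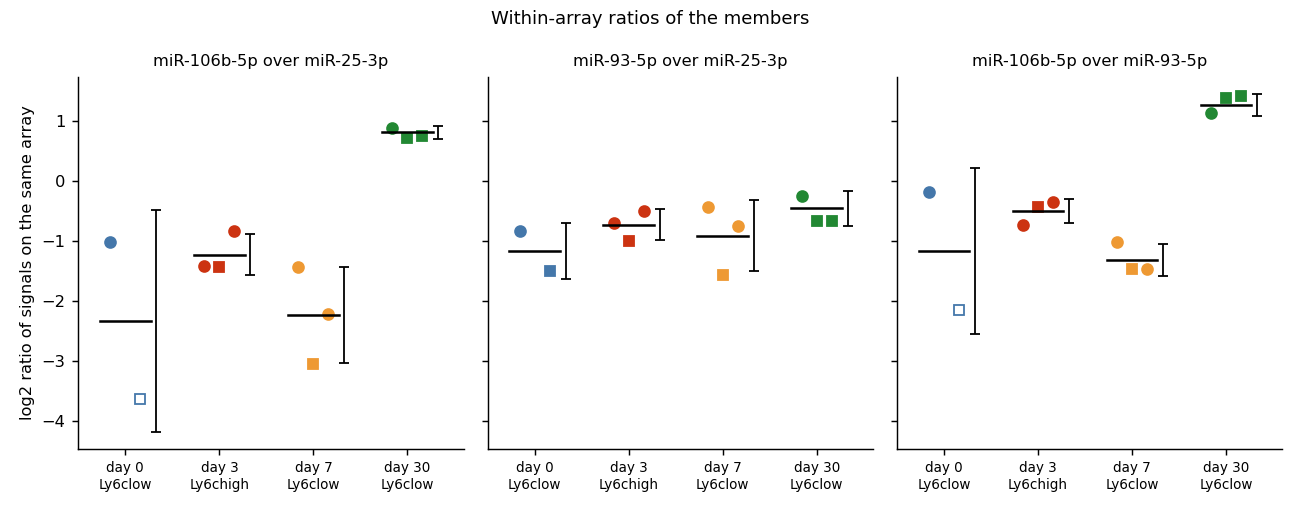
Within-array log2 ratio of each pair of members by group, with arrays as points (circles slide 1, squares slide 2, open where miR-106b-5p was not detected), means over samples as lines and ± SD as bars. Day 30 stands above all other arrays in both ratios with miR-106b-5p, whereas the ratio of miR-93-5p over miR-25-3p overlaps between groups.

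Over all 25200 assignments of the 10 samples to groups of these sizes, the exact permutation F test gave p = 0.0329 for miR-106b-5p over miR-25-3p, 0.0162 for miR-106b-5p over miR-93-5p and 0.449 for miR-93-5p over miR-25-3p. Adjusted over the 3 ratios these were 0.0493, 0.0486 and 0.449. The first pair passed by little. Leaving out any of the day 3 arrays, any of the day 7 arrays or day 30 replicate 1 took both over the threshold, to at most 0.206 and 0.13 (exact, adjusted). Leaving out day 0 replicate 2, where miR-106b-5p was not detected, gave 0.0119 and 0.00238 (exact, adjusted).

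Day 3 was also set against the 3 Ly6clow groups together, where an exact test of 120 splits can reach p = 0.0167. The ratios differed by 0.16 for miR-106b-5p over miR-25-3p, 0.12 for miR-93-5p over miR-25-3p and 0.04 for miR-106b-5p over miR-93-5p (two-sided exact permutation p = 0.833, 0.767 and 0.983; 0.983 each after adjustment over the 3 ratios). The Ly6clow groups differed among themselves, so this mean covers unlike values.

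To compare pairs of groups, every tested miRNA was set relative to miR-25-3p or miR-93-5p on its own array and fitted with limma, a fit added after the data had been seen. Relative to miR-25-3p, miR-106b-5p was higher at day 30 by 3.14 on the log2 scale against day 0, by 2.04 (SE 0.63) against day 3 and by 3.04 against day 7 (limma adjusted p = 0.00121, 0.00743 and 0.000593). The first of these was 4.44 with day 0 replicate 1 left out and 1.83 with replicate 2 left out; both passed. With all samples, 10.1%, 64.1% and 20.9% of miRNAs tested in this way were called higher at day 30 against day 0, day 3 and day 7. In the comparison with day 3 miR-25-3p itself fell, so a high share is built into that fit.

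Relative to miR-93-5p, miR-106b-5p was higher at day 30 by 2.43 against day 0, 1.76 against day 3 and 2.58 against day 7 (limma adjusted p = 0.00944, 0.0279 and 0.00878). The backgrounds of miRNAs called higher were 4.62%, 43.8% and 11.7%. The call against day 3 was lost without any 1 of the day 3 arrays and without day 30 replicate 1 (limma adjusted p up to 0.11). The call against day 0 was lost without day 0 replicate 2 (1.46, limma adjusted p = 0.066) or day 30 replicate 1 (0.0616), and the call against day 7 without day 30 replicate 1 (0.0752). miR-93-5p relative to miR-25-3p was 0.71, 0.27 and 0.46 higher at day 30 against day 0, day 3 and day 7, and none passed (limma adjusted p = 0.265, 0.646 and 0.467). Between day 3 and day 0, miR-106b-5p relative to miR-25-3p differed by 1.10 (limma adjusted p = 0.112).

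Brightness moved with the ratios. In all 4 groups the brightest array had the highest ratio of miR-106b-5p over miR-25-3p, and the same held for miR-93-5p over miR-25-3p. In each group the brightest array was on slide 1, and the slide 2 arrays were dimmer than the slide 1 arrays. Within groups, brightness and slide can therefore hardly be told apart. For miR-106b-5p over miR-93-5p it held in 3 of 4 groups, and at day 30 the brightest array had the lowest ratio. With brightness as a covariate miR-106b-5p relative to miR-25-3p was -1.86 at day 30 against day 0 and -0.63 against day 7, and neither passed; relative to miR-93-5p it was -0.083 and 0.74, and neither passed. Against day 3, the other bright group, the difference kept its call at 1.07 (limma adjusted p = 0.0429), and relative to miR-93-5p at 1.28 (limma adjusted p = 0.0231). The difference from day 3 relative to miR-25-3p was called in each of 7 alternatives and ran from 1.94 to 2.24 with 1 array left out. The highest floor lay below every day 3 and day 30 value of both miRNAs, so it could not change the size of this difference. In the main form of this fit 64.1% of miRNAs tested were called higher against day 3. Day 3 replicate 3, at 1607 scanner units on slide 1, had a ratio of -0.83. Day 30 replicates 2 and 3, counted as 1 sample, had 0.72 and 0.75 at 1453 and 1754 units on slide 2.

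**Figure D4:**
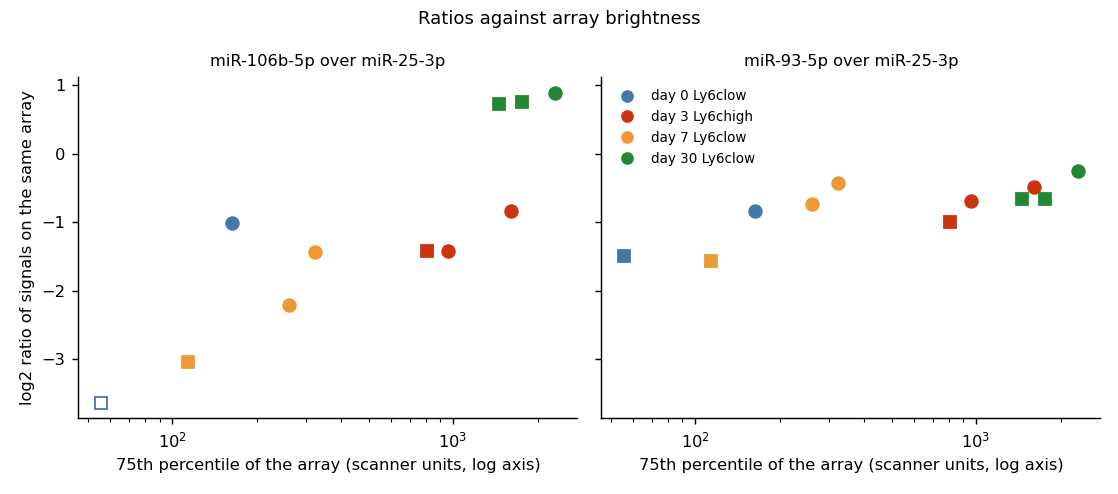
Within-array log2 ratios of miR-106b-5p and of miR-93-5p over miR-25-3p against the 75th percentile of each array in scanner units (log axis); colours are groups, circles slide 1, squares slide 2, and the open square is the array on which miR-106b-5p was not detected. Within each group the brightest array, always on slide 1, has the highest ratio. The day 30 arrays lie above the day 3 array of like brightness in the left panel only.

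Markers of red blood cells also stood highest at day 30. The summed scaled signal of miR-451a and miR-144-3p ran from -3.60 to -3.23 there (log2), against -5.77 to -4.31 for day 0, -5.01 to -4.12 for day 3 and -6.50 to -5.53 for day 7. Neither was detected on a day 0 array, so the day 0 range is scaled background, and neither was detected on every day 7 array. miR-144-3p was detected on no array at all. For 4 fibroblast and smooth muscle markers the sum ran from -4.10 to -3.31 for day 0 and from -2.52 to -2.45 for day 30. It was -3.70 to -3.36 for day 3 and -2.68 to -1.32 for day 7. The endothelial sum at day 30, -2.00 to -1.91, lay within that of day 0 (-3.76 to -1.18). The lymphocyte marker ran from -7.78 to -7.27 at day 30, below -6.11 to -4.70 at day 3 and -5.36 to -3.92 at day 7. It was detected on every array of these groups. No day 0 array detected it, so its day 0 range of -6.75 to -5.29 is scaled background. The part of such RNA in the ratios was not tested.

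The slide on which an array was hybridised gave the same direction for the day 30 ratios. The ratio of miR-106b-5p over miR-25-3p at day 30 was 2.02 above day 3 on slide 1 and 2.16 on slide 2, and 2.71 and 3.77 above day 7. The rise of the members from day 0 to day 3 was 1.94 and 4.44 for miR-106b-5p, 2.29 and 2.72 for miR-93-5p and 2.05 and 2.23 for miR-25-3p on slides 1 and 2. The day 0 array of slide 2 is the one on which miR-106b-5p was not detected.

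The miRNAs closest to each member were those whose log2 ratio to it varied least over the 10 samples, among the 126 detected on all arrays. For miR-106b-5p they were miR-142a-3p (SD of the ratio 0.57), miR-21a-5p (0.71), miR-26b-5p (0.74), miR-19b-3p (0.76) and miR-20a-5p (0.79), against a median of 2.24 over all. miR-142a-3p, a miRNA of blood-forming lineages, had means of -2.72 at day 0, 0.10 at day 3, -2.64 at day 7 and 0.91 at day 30. miR-106b-5p thus ran nearest to miRNAs outside its cluster: miR-93-5p ranked 16 and miR-25-3p ranked 28. These SDs include day 0 replicate 2, on which miR-106b-5p was not detected. Its ratios there were -2.14 over miR-93-5p and -3.63 over miR-25-3p, the lowest of all arrays. The summed signal of the macrophage and leukocyte markers, to which miR-142a-3p belongs, was likewise 3.84 to 4.16 for day 3 and 3.23 to 3.49 for day 30, against 2.23 to 3.07 for day 0 and 1.42 to 2.07 for day 7; its part in the pattern was not tested.

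miR-93-5p and miR-25-3p were each the third nearest to the other, with an SD of the ratio of 0.43. The nearest to miR-93-5p were miR-425-5p (0.34) and miR-15b-5p (0.42), and to miR-25-3p they were miR-15b-5p (0.30) and let-7i-5p (0.41). miR-15b-5p had means of 0.28 at day 0, 2.40 at day 3, 0.48 at day 7 and 0.56 at day 30, high on day 3 only. From their side miR-106b-5p ranked 28 for miR-93-5p and 64 for miR-25-3p. It was not detected on all arrays and was added to the miRNAs compared for these ranks. These SDs are descriptions of samples that share their scaling and brightness.

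The other arms of the 3 hairpins gave almost no signal. miR-106b-3p and miR-93-3p were detected on 1 of 11 arrays each, in both cases day 3 replicate 3, and miR-25-5p on none. Their signals were at most 2.34 scanner units, so none entered the test and the arms could not be compared.

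Of 5 miRNAs that share the seed of miR-106b-5p and miR-93-5p, 4 are on the array and 3 were tested, and miR-20a-5p and miR-20b-5p passed the test in the same comparisons as miR-106b-5p. Of all tested miRNAs 55.3% were called between day 0 and day 3, 37.1% between day 3 and day 7, and 56.4% and 47.7% between day 30 and day 0 or day 7. miR-20a-5p, of the Mir17hg cluster, had means of -1.76 ± 0.22 (SD, n = 2) at day 0, -0.14 ± 0.38 (n = 3) at day 3, -2.01 ± 0.34 (n = 3) at day 7 and -0.26 ± 0.22 (n = 2) at day 30. It rose by 1.63 from day 0 to day 3, fell by 1.87 to day 7 and rose by 1.75 to day 30 (limma adjusted p = 0.00852, 0.00365 and 0.00518). miR-20b-5p, of the X chromosome cluster, had means of -4.17, -1.77, -3.79 and -1.96 in the same order of days, with 1 of 2 day 0 arrays detected. miR-17-5p was detected on the day 3 and day 30 arrays only, at no more than 31.9 scanner units, and was not called. The median change of the 3 tested was 1.63 on the log2 scale at day 3 and 1.51 at day 30, each against day 0, against -0.79 and -1.37 over all 369.

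miR-92a-3p, the bright relative of miR-25-3p, did not follow it. Its means were 0.46 ± 0.67 (SD, n = 2) at day 0, 0.39 ± 0.53 (n = 3) at day 3, -0.08 ± 0.56 (n = 3) at day 7 and -0.61 ± 0.27 (n = 2) at day 30, and no pair of groups differed by the test. It differed by -0.07 between day 3 and day 0 (95% interval -1.16 to 1.02), where miR-25-3p rose by 2.05. Of 5 relatives with this seed 3 were tested. The others tested, miR-32-5p and miR-92b-3p, were undetected on both day 0 arrays and reached at most 6.32 scanner units, so that their calls against day 0 (both at day 30, miR-32-5p also at day 3) rest on the scaled background of the dim day 0 arrays and are not read as changes.

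**Figure D5:**
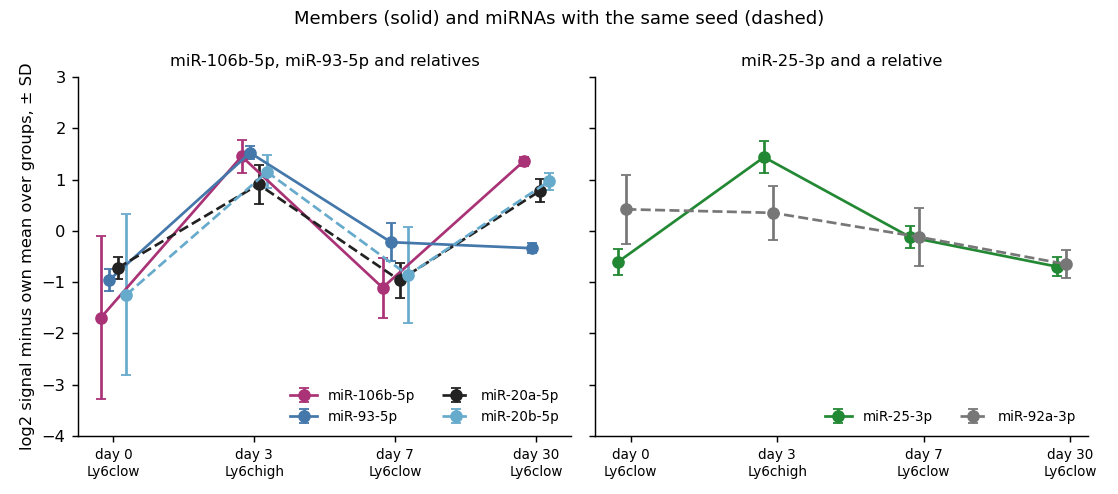
Mean log2 signal of members (solid) and of seed relatives (dashed) by group, each minus its own mean over the 4 groups, with ± SD of its samples as bars. In the left panel miR-20a-5p, miR-20b-5p and miR-106b-5p are high at day 3 and day 30 and miR-93-5p at day 3 only; in the right panel miR-92a-3p lacks the day 3 peak of miR-25-3p.

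In the paralogous Mir17hg cluster and the related cluster on the X chromosome, which are known for promoting proliferation in immune cells, 12 of 13 mature miRNAs are on the array and 9 were tested. At day 3 against day 0, 5 of the 9 were higher and none lower: miR-18a-5p, miR-19a-3p, miR-19b-3p, miR-20a-5p and miR-20b-5p. Over all tested miRNAs 16.3% were called higher. With the highest floor miR-19b-3p and miR-20b-5p did not pass (limma adjusted p = 0.151 and 0.0795). In the comparisons that share these groups, the 5 were also lower at day 7 against day 3, higher at day 30 against day 0 and higher at day 30 against day 7, against 16%, 8.94% and 13.6% of all tested miRNAs. From day 3 to day 30 none of these 5 passed, as for miR-106b-5p. miR-18a-5p and miR-19a-3p were detected on neither day 0 array, so no fold is given for them there.

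miR-19b-3p, one of the 5 nearest to miR-106b-5p, had means of -2.59 ± 0.70 (SD, n = 2) at day 0, -1.10 ± 0.51 (n = 3) at day 3, -3.18 ± 0.88 (n = 3) at day 7 and 0.09 ± 0.12 (n = 2) at day 30. Its rise of 1.49 at day 3 against day 0 was narrow (limma adjusted p = 0.0377). Leaving out any of 5 arrays ended the call: day 0 replicate 2, both day 3 replicates 2 and 3, the third of day 7 and the first of day 30 (limma adjusted p from 0.0539 to 0.233). It was also lost with the replicate block (1.39, limma adjusted p = 0.0585), quantile normalization (0.0829), the highest floor (0.151) and only the compared groups fitted (0.052). Its rise of 3.27 from day 7 to day 30 passed (limma adjusted p = 0.000856). miR-18a-3p was called lower at day 30 against day 0 and against day 3, but lay at the floor on all day 30 arrays and was undetected at day 0. With brightness as a covariate miR-19b-3p and miR-20b-5p turned below day 0 at both day 3 and day 30, without passing, and miR-20a-5p kept its direction in its 4 called comparisons but passed in none. That covariate also ended the calls of miR-18a-5p at day 30 against day 0 and day 7 (limma adjusted p = 0.31 and 0.147). It ended those of miR-19a-3p for the day 3 rise over day 0 and for day 30 against day 0 and day 7 (limma adjusted p = 0.0846, 0.204 and 0.0682). Nor did miR-19b-3p then pass between day 3 and day 7 or between day 7 and day 30 (limma adjusted p = 0.699 and 0.472).

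Single arrays and other settings decided more calls of the relatives. The call of miR-20a-5p at day 30 against day 0 was lost without day 0 replicate 2 or day 30 replicate 1 (limma adjusted p = 0.0534 and 0.0644). That of miR-18a-5p was lost there without day 0 replicate 1 or day 30 replicate 1 (0.0963 and 0.0628). For miR-20b-5p the call at day 3 against day 0 was lost without day 0 replicate 2 (0.118). Its call at day 30 against day 0 was lost without that array or day 30 replicate 1 (0.195 and 0.0875). The call at day 7 against day 3 was lost without day 3 replicate 3 or day 7 replicate 2 (0.0795 and 0.0763). The call at day 30 against day 7 was lost without the third array of day 3, replicates 2 or 3 of day 7, or the first array of day 30 (limma adjusted p from 0.0505 to 0.172). With the highest floor miR-20b-5p passed in none of its 4 comparisons (limma adjusted p from 0.0793 to 0.146). Its calls at day 7 against day 3 and day 30 against day 7 were also lost with the percentile taken over all miRNAs (0.0624 and 0.053), and those at day 30 against day 0 and day 7 with quantile normalization (0.0713 and 0.0787). miR-20a-5p at day 30 against day 0 was lost with only the compared groups fitted (0.107).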

How the data were processed

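Per the file headers, each of 11 deposited scanner files gives for each miRNA an intensity, the total gene signal in scanner units, with its error and a detection flag (1247 miRNAs). Per the labels' protocols, 100 ng of total RNA was labelled with Cy3; per the submitters' processing notes, Agilent Feature Extraction read the images. The authors' deposited table of 317 miRNAs holds log2 values and was an alternative.

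Signals were divided by the array's 75th percentile over 126 miRNAs detected on all arrays, floored (log2 -8.53) and logged. limma 3.58.1 (R 4.3.3) fitted 369 miRNAs in 1 model of 4 groups with 6 residual degrees of freedom. Day 30 replicates 2 and 3 were averaged: their squared difference was 0.21 times that expected from scanner error, against 3.03 to 39.1 for the other 9 pairs. Ratios were tested by exact permutation in Python 3.11.15 with scipy 1.17.1. Both tests were tried on simulated data. The alternatives covered scaling, floor, filter, the authors' table, separate arrays, slide, replicate block, brightness, the groups fitted and each array left out. The members, lists and tests were chosen with earlier results of these data known. The named miRNAs were the members, the other arms, the seed relatives, the paralogous clusters and the 5 nearest miRNAs. The sequence table held 1034 of the 1247 array names. The number of arrays limits the precision.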

Additional observations from a re-analysis of the deposited data

How the results depend on the processing

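Once brightness was a covariate, miR-106b-5p moved to 0.13 (day 3 against day 0), -0.41 (day 7 against day 0), -0.69 (day 30 against day 0), -0.54 (day 7 against day 3) and -0.28 (day 30 against day 7), and its F test to an adjusted p of 0.247 (limma). miR-93-5p moved to 1.49, -0.60 (day 30 against day 0) and -1.08 (day 7 against day 3), and miR-25-3p to 1.17 (day 30 against day 0) and 0.35 (day 30 against day 7). miR-106b-5p relative to miR-25-3p moved to -1.86 and -0.63, and relative to miR-93-5p to -0.083 and 0.74, at day 30 against day 0 and day 7. miR-93-5p relative to miR-25-3p moved to -1.78, -0.20 and -1.37 at day 30 against day 0, day 3 and day 7. miR-19b-3p moved to -1.10 and -0.53 at day 3 and day 30 against day 0. miR-20b-5p moved to -1.59 and -2.72 there, to 0.66 at day 7 against day 3 and to -1.79 at day 30 against day 7. The brightness of day 0 and day 7 did not overlap that of day 3 and day 30, so this covariate and those groups can hardly be told apart. The cause was not tested.

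With the percentile taken over all miRNAs, miR-106b-5p was 0.31 at day 30 against day 3; miR-93-5p was 3.57, -1.46 and 1.50 at day 30 against day 0, day 3 and day 7; and miR-25-3p was 1.81 at day 7 against day 0 and 2.86 and 1.05 at day 30 against day 0 and day 7. Of these, the values of both against day 0 gained a call and -1.46 lost one. The median changes of the 126 miRNAs detected on all arrays were then 1.88, -0.089 and 1.055 at day 30 against day 0, day 3 and day 7. Without scaling, miR-106b-5p was 0.74 at day 30 against day 3, miR-93-5p was 4.95, -1.03 and 3.06 at day 30, and miR-25-3p was 4.24, -1.30 and 2.60; for both, calls were gained against day 0 and day 7 and lost against day 3. With quantile normalization miR-106b-5p was 0.036 at day 30 against day 3, and miR-25-3p was 0.91 at day 7 against day 0 and 0.23 and -0.69 at day 30 against day 0 and day 7, of which 0.91 and -0.69 gained a call. The authors' deposited table, fitted the same way, gave 0.036 and 0.23 for the values of miR-106b-5p against day 3 and miR-25-3p against day 0. With the slide as a block miR-106b-5p was 0.0085 at day 30 against day 3. The ratios with miR-106b-5p over miR-25-3p and over miR-93-5p differed between day 3 and the Ly6clow groups by -0.21 and -0.23 where undetected members were left out, and by -0.10 and -0.20 over 11 separate arrays. The unscaled median changes of the 126 miRNAs detected on all arrays were 3.265, 0.34 and 2.61 at day 30 against day 0, day 3 and day 7. In these settings the cause was not tested.

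Leaving out 1 array gave ranges of -0.54 to 1.71 for miR-106b-5p at day 7 against day 0 and -0.28 to 0.0083 at day 30 against day 3. The ranges were -1.94 to -1.82 and -0.33 to 0.024 for miR-93-5p at day 30 against day 3 and day 7, and -0.27 to 0.095 and -2.23 to -1.96 for miR-25-3p at day 30 against day 0 and day 3. For miR-106b-5p relative to miR-93-5p at day 30 they were 1.46 to 3.41, 1.65 to 1.89 and 2.50 to 2.74 against day 0, day 3 and day 7. The adjusted exact p across groups ranged from 0.00298 to 0.206 and from 0.00119 to 0.13 for the ratios over miR-25-3p and miR-93-5p. The differences at day 3 ranged from -0.21 to 0.54 and from -0.23 to 0.32.

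Whether replicate numbers pair the samples was left unsettled. Correlations of deviations ran from -0.18 to 0.503 over 13 same-numbered pairs and from -0.503 to 0.442 over 24 others, and these ranges overlap. Every same-numbered pair also shared a slide. With the replicate block the calls of the 3 members were unchanged, at 3.10, 2.43 and 2.10 at day 3 against day 0, where the call of miR-19b-3p was lost. In that fit miR-106b-5p relative to miR-25-3p was 2.14 at day 30 against day 3 (limma adjusted p = 0.0107).

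Counts of called miRNAs moved by over 1.5 times in every comparison, but the settings did not all test the same number of miRNAs. The main fit tested 369, and the setting without the detection filter tested all 1247 on the array. Counts above 369 can come only from that setting, so the ranges do not follow the same set of miRNAs. In limma fits, 204 were called at day 3 against day 0 (68 to 1110 over settings), 14 at day 7 against day 0 (0 to 1011) and 208 at day 30 against day 0 (0 to 1109). The counts were 137 at day 7 against day 3 (58 to 790), 114 at day 30 against day 3 (50 to 201) and 176 at day 30 against day 7 (13 to 244). Where a setting called no miRNA, some still reached an unadjusted limma p under 0.05. There were 24 at day 7 against day 0, with only those groups fitted. There were 75 at day 30 against day 0, with brightness as a covariate. Leaving out day 3 replicate 2, day 3 replicate 3 or day 7 replicate 3 also ended every call at day 7 against day 0. The unadjusted limma p was then under 0.05 for 125, 116 and 38. Fitting only miRNAs detected on all arrays gives no value for miR-106b-5p. Signals of 1.44 to 22.9 scanner units limit the day 0 values of miR-106b-5p and miR-93-5p.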
